A study of Mus musculus with 4 samples.

Results

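The Cyp3a genes of mouse liver were examined in 4 F1 hybrids, as the rows of the deposited expression tables that carry the name of one of 8 genes, Cyp3a11, Cyp3a13, Cyp3a16, Cyp3a25, Cyp3a41a, Cyp3a41b, Cyp3a44 and Cyp3a59. All 8 were listed among the 8797 genes of the tables, and all 8 were among the 3632 genes with an allele frequency in every mouse. The mice were females of 5 months of age, bred from C57BL/6J (B6), a laboratory strain derived mainly from Mus musculus domesticus, and MSM/Ms (MSM), an inbred strain derived from wild Mus musculus molossinus. In 2 of them the mother was MSM and the father B6, and in the other 2 the strains of the parents were exchanged. Each F1 mouse therefore carried a B6 and an MSM set of autosomes in the same cells, and the reciprocal crosses exchanged which parent gave which set. Whether the MSM set holds the same copies of the 8 genes as the B6 reference was not examined. Whole liver was used from each mouse, no males or parental strains were measured, and whether the mice of a cross were littermates is not given in the sources used here, so the tests measure the spread among these animals. Expression was given as FPKM, the number of sequenced fragments per kilobase of transcript and per unit of mapped fragments in the library. The B6-allele frequency was the number of reads carrying B6 bases divided by the number carrying B6 or MSM bases.

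Cyp3a genes encode cytochromes P450 of the endoplasmic reticulum, haem enzymes that oxidize steroids, bile acids and a wide range of drugs. Hepatocytes are their main site of expression, and the genes are known for induction by foreign compounds through the nuclear receptors PXR and CAR and for dependence on the liver factor HNF4α. Mouse Cyp3a11 is commonly treated as the functional counterpart of human CYP3A4. Cyp3a41 and Cyp3a44 are known as genes with higher expression in female than in male liver, an effect of the sex-specific pattern of growth hormone secretion, and Cyp3a16 is known as a form of the fetal and newborn liver.

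The genes lie on chromosome 5 (mm10 assembly), and each annotated coding transcript used here has 13 exons. Cyp3a16 (chr5:145436309-145469723), Cyp3a41b (chr5:145558664-145584730), Cyp3a41a (chr5:145694049-145720136), Cyp3a44 (chr5:145773983-145805874), Cyp3a11 (chr5:145854426-145879964) and Cyp3a25 (chr5:145977194-146009618) follow each other on the minus strand. Cyp3a59 (chr5:146079257-146113287) closes the group on the plus strand. Cyp3a13 (chr5:137892932-137921619, minus strand) lies apart from these 7, so that the name of a cluster fits 7 of the 8 genes. The coding sequences of the B6 reference formed 3 groups. Cyp3a11, Cyp3a44, Cyp3a41a, Cyp3a41b and Cyp3a16 were 92.39% to 99.87% identical to each other, Cyp3a25 and Cyp3a59 were 97.48% identical, and Cyp3a13 was at most 76.47% identical to any of the others.

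**Figure D1:**
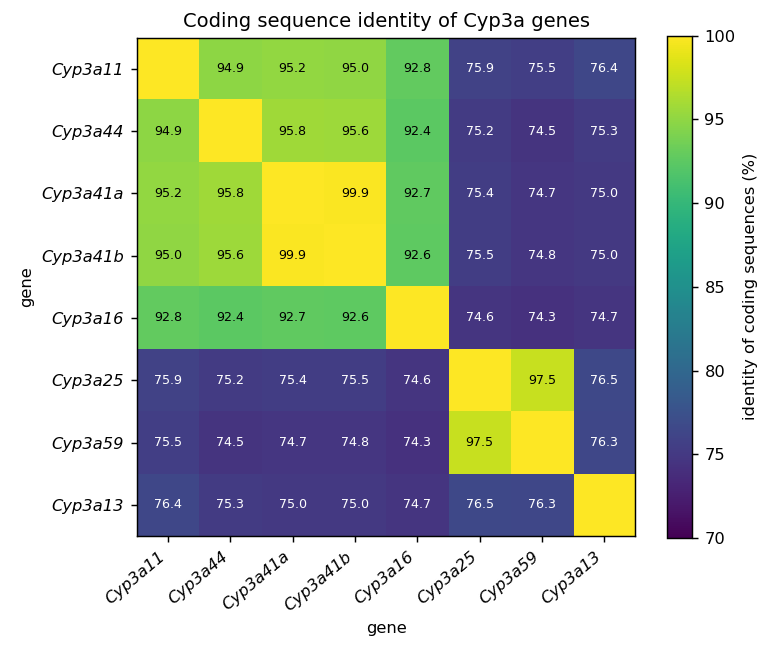
Identity of the coding sequences of the 8 Cyp3a genes in the mm10 reference, in percent of aligned bases, for each pair of genes (rows and columns). Cyp3a41a and Cyp3a41b are 99.87% identical, Cyp3a25 and Cyp3a59 97.48%, and Cyp3a13 and the pair of Cyp3a25 and Cyp3a59 stand apart from the other 5 genes.

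Cyp3a41a and Cyp3a41b differed at 2 of 1512 coding bases. The stretches around these bases are shown because in the B6 reference they are the only coding bases that separate the pair. Positions are counted from 1 at the first base of the coding sequence, the base that differs is in capitals, and the bases shown are 90 to 150 for G120A and 306 to 366 for G336T (the base of Cyp3a41a first).
Cyp3a41a G120A: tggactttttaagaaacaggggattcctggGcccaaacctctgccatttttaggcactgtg
Cyp3a41b G120A: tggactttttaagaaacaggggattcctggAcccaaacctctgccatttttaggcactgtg
Cyp3a41a G336T: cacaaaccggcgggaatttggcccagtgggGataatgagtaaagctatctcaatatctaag
Cyp3a41b G336T: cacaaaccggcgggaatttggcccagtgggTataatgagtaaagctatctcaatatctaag
Over whole transcripts, 1584 of 1911 stretches of 150 bases of Cyp3a41a (82.89%), the length of a read, also occurred in Cyp3a41b. By contrast, none of these stretches of Cyp3a11, Cyp3a13, Cyp3a16 or Cyp3a44 occurred in a transcript of another gene, and 13 stretches were shared between Cyp3a25 and Cyp3a59 (0.70% and 0.71% of their stretches). At 75 bases the shared portion was 95.27% for Cyp3a41a and 90.9% for Cyp3a41b, against 11.21% for Cyp3a25, 11.02% for Cyp3a44, 10.8% for Cyp3a59, 3.66% for Cyp3a11, 1.63% for Cyp3a16 and 0 for Cyp3a13. The alignment kept at most 1 position per read, so the levels and frequencies of Cyp3a41a and Cyp3a41b are uncertain as values of the single genes, and they are also given as a sum. Only exact matches between transcripts of the B6 reference were counted. Reads with mismatches and reads of MSM copies were not examined, so an exchange of reads among the other members was not tested.

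The sequences just upstream of the genes are shown for 4 members, because the 2 that differed most in level between the crosses, Cyp3a16 and Cyp3a44, and the most MSM-biased member, Cyp3a41a, share most of them. These are the 100 bases before the RefSeq start (GRCm38.p6, minus strand, B6 reference), and capitals mark CAAAGTCCA, a typical recognition sequence of HNF4α. The windows are chr5:145720137-145720236 for Cyp3a41a, chr5:145584731-145584830 for Cyp3a41b, chr5:145805875-145805974 for Cyp3a44 and chr5:145469724-145469823 for Cyp3a16.
Cyp3a41a: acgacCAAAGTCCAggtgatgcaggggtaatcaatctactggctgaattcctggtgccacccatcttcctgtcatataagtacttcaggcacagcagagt
Cyp3a41b: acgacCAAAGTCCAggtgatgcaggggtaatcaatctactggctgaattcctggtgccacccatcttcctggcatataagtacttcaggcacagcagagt
Cyp3a44: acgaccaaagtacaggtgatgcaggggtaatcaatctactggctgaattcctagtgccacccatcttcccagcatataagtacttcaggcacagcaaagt
Cyp3a16: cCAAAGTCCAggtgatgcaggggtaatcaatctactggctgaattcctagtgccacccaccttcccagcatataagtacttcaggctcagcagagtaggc
Counted from the first base shown, Cyp3a41a and Cyp3a41b differed by T72G. Cyp3a41a and Cyp3a44 differed by C12A, G53A, T70C, G71A, T72G and G97A, the first of which lies in the CAAAGTCCA match. Over 250 bases, identity was 99.6% between Cyp3a41a and Cyp3a41b, 94.8% between Cyp3a41b and Cyp3a44, 92.9% between Cyp3a16 and Cyp3a44 and 94.8% between Cyp3a25 and Cyp3a59. CAAAGTCCA was found in these 250 bases, on either strand, in 4 members (Cyp3a11, Cyp3a16, Cyp3a41a and Cyp3a41b) and in 0.384% of 32851 annotated promoters. The half-site AGGTCA of nuclear receptors was found in 4 members (Cyp3a11, Cyp3a25, Cyp3a44 and Cyp3a59) and in 14.0% of promoters, and AGTTCA, the half-site typical of PXR elements, in 3 (Cyp3a11, Cyp3a41a and Cyp3a41b) and in 11.8%. TATAAA was found in 5 members (Cyp3a11, Cyp3a16, Cyp3a41a, Cyp3a41b and Cyp3a44) and in 12.4% of promoters, and TTGCAA, a core bound by C/EBP factors, in 0 members and 5.34%. A match describes the letters only, and the corresponding MSM sequences were not analysed here.

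The summed FPKM of the 4 libraries ranged from 529024 to 671875, and the highest belonged to the MSM-mother mouse 1, in which Mir3470a alone was listed at 47024.5 FPKM. The deposited values hold no read numbers, so the depth behind an FPKM or a frequency is unknown. 5 of 6 hepatocyte markers were listed, led by Apoa1 and Serpina1a, and Alb, the gene of albumin, was not. Some or all markers of stellate cells, Kupffer cells and sinusoidal endothelium were listed, and none of those of cholangiocytes or leukocytes. Since Alb is missing from the tables too, a marker that is not listed cannot be read as absent from the tissue. The hepatocyte marker Cyp2e1 was listed at 0 in both MSM-mother mice and at 4876 and 6541 FPKM in the B6-mother mice, although it had an allele frequency in all 4, so a 0 in these tables need not mean absence. Median allele frequencies over all genes were 0.509 to 0.512.

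Cyp3a11 had the highest mean level of the 8 genes and Cyp3a59 the lowest. Cyp3a11 was at 2313 and 1748 FPKM in the MSM-mother mice and at 818 and 1470 FPKM in the B6-mother mice, a mean of 1587 ± 621 FPKM (SD, n = 4) that ranked 46 among the 8797 genes. Cyp3a41a, with 1213, 861, 1405 and 1002 FPKM in the same order of mice, averaged 1120 ± 239 FPKM. Cyp3a41b, with 1113, 877, 1245 and 787 FPKM, averaged 1005 ± 211 FPKM. These 3 genes overlapped in their ranges. Cyp3a41a exceeded Cyp3a41b in 3 of 4 mice, by ratios of 1.09, 0.982, 1.13 and 1.27, and their sum was 2326, 1737, 2650 and 1789 FPKM.

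Cyp3a44 formed the next level, at 208, 207, 561 and 339 FPKM, below Cyp3a41b in 4 of 4 mice with no overlap of the ranges. Cyp3a25, a member of the second sequence group, was at 178, 197, 158 and 221 FPKM. Cyp3a16 was at 38.7, 68.5, 193 and 165 FPKM and had the widest range of the 8 genes, with the highest mouse 4.99 times the lowest. Each of these overlapped the next in range, from Cyp3a44 through Cyp3a25 and Cyp3a16 to Cyp3a13. Cyp3a13, which is known to be expressed in intestine as well as liver, was at 67.5, 62.7, 62.3 and 55.0 FPKM and had the narrowest range, 1.23-fold. Cyp3a59 was at 14.0, 16.1, 13.2 and 24.3 FPKM, below Cyp3a13 in every mouse without overlap, and ranked 3349 of 8797. Its close relative Cyp3a25 was 12.7, 12.3, 11.99 and 9.08 times higher.

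**Figure D2:**
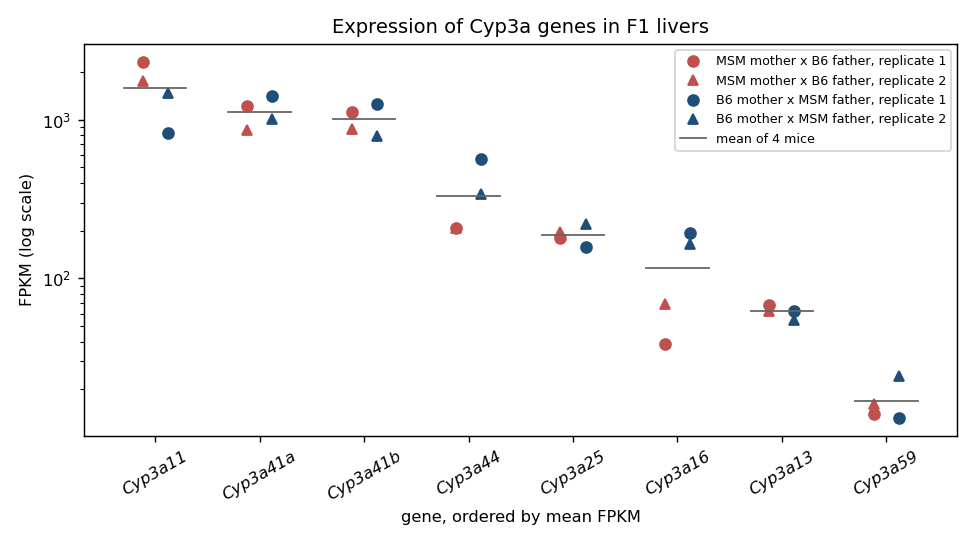
FPKM of the 8 Cyp3a genes (log scale) in each of the 4 mice, ordered by mean FPKM, with colours for the cross, symbols for the replicate and grey lines for the mean of 4 mice. Cyp3a11, Cyp3a41a and Cyp3a41b overlap at the top, Cyp3a59 lies below all others, and the crosses separate most widely for Cyp3a16.

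Together the 8 genes were at 5146, 4036, 4456 and 4063 FPKM, 0.709% to 0.842% of all listed FPKM. The highest sum was thus close to the lowest, while the levels of Cyp3a11 ran over a 2.83-fold range. Cyp3a11 made up 44.95% and 43.3% of the sum in the MSM-mother mice and 18.4% and 36.2% in the B6-mother mice. Cyp3a44 made up 4.05% and 5.12% against 12.6% and 8.34%, and Cyp3a16 made up 0.753% and 1.70% against 4.34% and 4.06%. In the B6-mother mouse 1, Cyp3a41a was the leading member with 31.5%. The ratio of Cyp3a44 to Cyp3a11 was 0.0900 and 0.118 in the MSM-mother mice and 0.685 and 0.231 in the B6-mother mice.

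**Figure D3:**
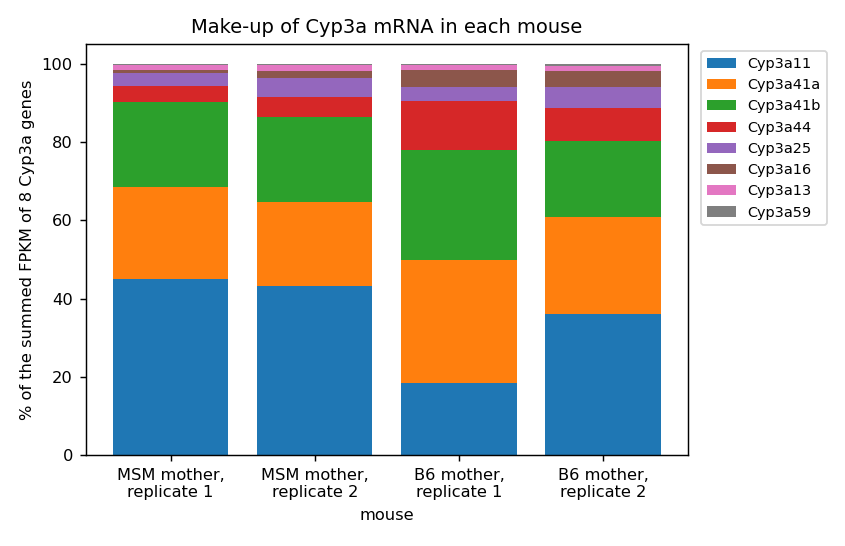
Share of each Cyp3a gene in the summed FPKM of the 8 genes (percent, stacked bars), for each of the 4 mice. Cyp3a11 makes up 44.95% and 43.3% in the MSM-mother mice and 18.4% and 36.2% in the B6-mother mice.

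Next, the B6-allele frequencies of the members were compared. They spanned nearly the whole scale, with mean frequencies from 0.0648 for Cyp3a41a to 0.966 for Cyp3a59, and genes a short distance apart were biased toward opposite alleles. An imbalance that differed from equal use of the alleles beyond the spread between mice was found in 6 of the 8 genes, 3 toward B6 (Cyp3a13, Cyp3a25 and Cyp3a59) and 3 toward MSM (Cyp3a11, Cyp3a41a and Cyp3a41b). Of all 3632 genes, 36.2% were called in the same test, 22.6% toward B6 and 13.6% toward MSM (limma on log2 odds, adjusted p under 0.05). The median size of the log2 odds was 1.77 over the members and 0.24 over all genes.

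Cyp3a41a was the most MSM-biased member, with frequencies of 0.0781 and 0.0801 in the MSM-mother mice and 0.0528 and 0.0482 in the B6-mother mice. Its log2 odds averaged -3.89 (SE 0.05, limma adjusted p = 3.0e-04). Cyp3a11 had frequencies of 0.265, 0.232, 0.189 and 0.178 (log2 odds -1.88, SE 0.07, limma adjusted p = 0.00252). Both genes were below 0.3 in every mouse, so most of the Cyp3a11 and Cyp3a41a mRNA that could be assigned came from the MSM allele. Cyp3a41b, at 0.211, 0.230, 0.366 and 0.316, was less extreme (log2 odds -1.39, SE 0.08, limma adjusted p = 0.00481). Cyp3a41a was below Cyp3a41b in 4 of 4 mice. The pair shares most of its stretches of read length, so the frequencies of the single genes are uncertain. Weighted by FPKM, the B6 share of the pair was 0.141, 0.156, 0.1999 and 0.166.

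In the other direction, Cyp3a59 had frequencies of 0.961, 0.964, 0.976 and 0.961 (log2 odds 4.84, SE 0.15, limma adjusted p = 0.00204). Cyp3a13 had frequencies of 0.777, 0.807, 0.837 and 0.843 (log2 odds 2.16, SE 0.07, limma adjusted p = 0.00197). Cyp3a25, the relative of Cyp3a59, had frequencies of 0.788, 0.715, 0.739 and 0.790 (log2 odds 1.66, SE 0.14, limma adjusted p = 0.00818). Cyp3a25 and Cyp3a59 were thus both B6-biased, and their ranges did not overlap. The call for Cyp3a25 was lost when either B6-mother mouse was left out (log2 odds 1.76, limma adjusted p = 0.0597 without replicate 1 and log2 odds 1.56, limma adjusted p = 0.0657 without replicate 2). In the same fits, calls over all genes went from 1316 to 202 and 181.

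Cyp3a44 was near equal use of the alleles, at 0.527, 0.550, 0.483 and 0.499 (log2 odds 0.09, SE 0.05, limma adjusted p = 0.276). It lies between Cyp3a41a and Cyp3a11, both MSM-biased. Cyp3a16, at 0.715, 0.624, 0.502 and 0.507, was just short of the threshold (log2 odds 0.53, SE 0.12, limma adjusted p = 0.0501). It passed when the MSM-mother mouse 2 was left out (log2 odds 0.68, limma adjusted p = 0.0419). By the thresholds of the study, a mean of at least 0.8 for B6-biased and at most 0.2 for MSM-biased genes, Cyp3a13 and Cyp3a59 were B6-biased and Cyp3a41a was MSM-biased, where 1.84% and 1.35% of all genes were past these thresholds. Cyp3a13 lay just inside, with a mean of 0.816 and a single mouse under 0.8, and Cyp3a11 just outside, with 0.216. From the lowest frequency upward, the ranges did not overlap between Cyp3a41a and Cyp3a11, Cyp3a41b and Cyp3a44, Cyp3a16 and Cyp3a25, and Cyp3a13 and Cyp3a59. The other neighbours in this order overlapped.

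Weighted by FPKM, the B6 share of all Cyp3a mRNA was 0.250, 0.258, 0.277 and 0.260. The MSM-biased Cyp3a11, Cyp3a41a and Cyp3a41b made up on average 35.7%, 25.3% and 22.7% of the summed FPKM, and the B6-biased Cyp3a13, Cyp3a25 and Cyp3a59 made up 1.404%, 4.33% and 0.391%.

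**Figure D4:**
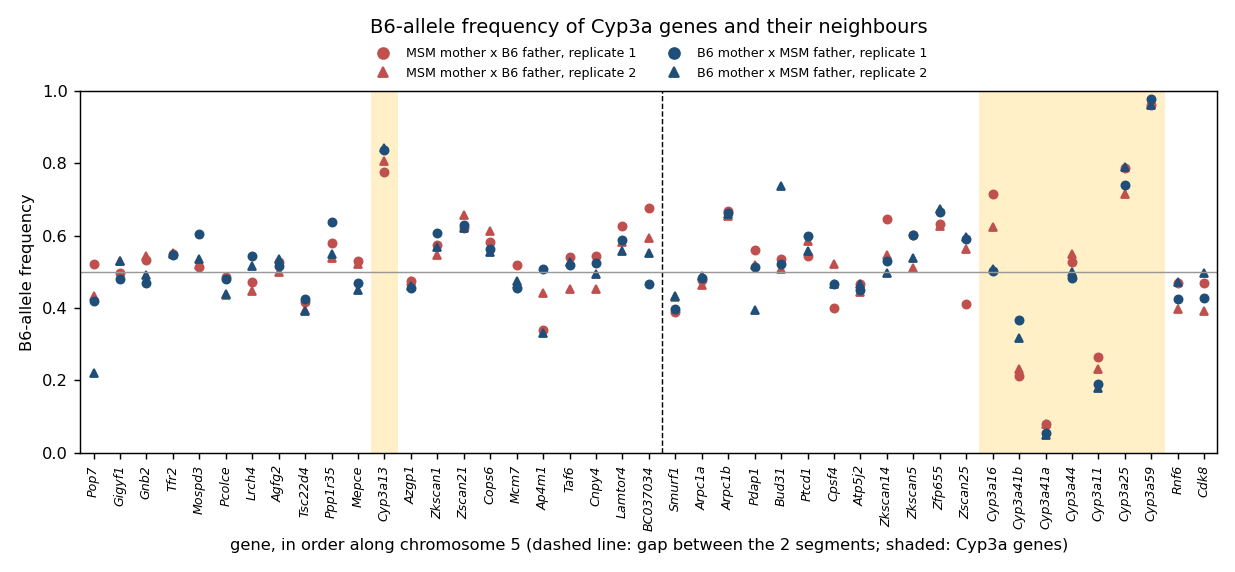
B6-allele frequency in each of the 4 mice for the 8 Cyp3a genes (shaded) and 35 neighbouring genes, in their order along chromosome 5, with a dashed line at the gap between the segment of Cyp3a13 and the segment of the other members. Mean frequencies of the neighbours lie between 0.399 and 0.661, and those of the Cyp3a genes between 0.0648 and 0.966.

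To set these frequencies beside those of the surrounding chromosome, the listed neighbours were examined. 35 other genes lay within 500 kb of a member, and their mean frequencies ran from 0.399 to 0.661 with a median of 0.509. Of the 35, 8 were called toward B6 and 4 toward MSM, shares close to the 22.6% and 13.6% of all genes. None of them was past 0.8 or 0.2, whereas 6 of the 8 Cyp3a genes lay outside the range of the neighbours. Zkscan1, Zscan21, Cops6, Lamtor4 and Tfr2, around Cyp3a13, and Arpc1b, Ptcd1 and Zfp655, around the other members, were called toward B6. Tsc22d4 and Azgp1, around Cyp3a13, and Smurf1 and Atp5j2, around the others, were called toward MSM. Not called around Cyp3a13 were Pop7, Gigyf1, Gnb2, Mospd3, Pcolce, Lrch4, Agfg2, Ppp1r35, Mepce, Mcm7, Ap4m1, Taf6, Cnpy4 and BC037034, and around the other members Arpc1a, Pdap1, Bud31, Cpsf4, Zkscan14, Zkscan5, Zscan25, Rnf6 and Cdk8. Cyp3a16 at 0.587 and its nearest listed neighbour Zscan25 at 0.540 were alike in mean frequency, while on the other side of the cluster Cyp3a59 at 0.966 was followed by Rnf6 at 0.441.

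The reciprocal crosses were then compared in level. Between mice with an MSM mother and mice with a B6 mother, Cyp3a16 and Cyp3a44 were lower and Cyp3a11 was higher, and none of these differences passed the test over all genes. At an adjusted p under 0.05, 0 of the 8 genes and 0.0455% of all 8797 genes were called (limma with a variance trend on log2(FPKM + 1)). At an unadjusted p under 0.05 it was 3 of the 8 members (Cyp3a16, Cyp3a44 and Cyp3a11) and 8.87% of all genes. The mice of the crosses did not overlap for 4 members (Cyp3a11, Cyp3a13, Cyp3a16 and Cyp3a44), where 42.4% of all genes did not overlap. With 2 mice against 2, an exact permutation test cannot give a p below 0.333. In bulk liver, fewer cells of a type and less RNA per cell cannot be told apart.

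Both MSM-mother mice, at 38.7 and 68.5 FPKM, were below both B6-mother mice, at 193 and 165 FPKM, in Cyp3a16. Its mean was 3.34-fold higher with a B6 mother, a log2 difference of -1.77 for MSM mother minus B6 mother (SE 0.28, limma adjusted p = 0.267). It passed the test with FPKM rescaled to the same sum in each library (log2 difference -1.90, limma adjusted p = 0.0467). That rescaling lowers all values of the MSM-mother mouse 1, whose sum was the highest. Cyp3a16 did not pass with log2 values shifted to the same median (log2 difference -1.80, limma adjusted p = 0.239). Without the MSM-mother mouse 2 the log2 difference was -2.17. Cyp3a44 was 2.17-fold higher with a B6 mother (log2 difference -1.07, SE 0.26, limma adjusted p = 0.411). Here the MSM-mother mice were at nearly the same level, 208 and 207 FPKM, and the B6-mother mice lay apart at 561 and 339 FPKM. Without the latter's replicate 1 the log2 difference was -0.71.

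Cyp3a11 went the other way, 1.77-fold higher with an MSM mother (log2 difference 0.87, SE 0.33, limma adjusted p = 0.546). Without the B6-mother mouse 1 the log2 difference was 0.45, and without the B6-mother mouse 2 it was 1.30. The gap between the crosses, from 1470 to 1748 FPKM, was smaller than the gap between the B6-mother mice. Cyp3a13 did not overlap between the crosses either, but its log2 difference was 0.15 (SE 0.14, limma adjusted p = 0.722). For Cyp3a25, Cyp3a41a, Cyp3a41b and Cyp3a59 the log2 differences lay between -0.24 and 0.01, with SEs of 0.20 to 0.28. Over the members the median size of the log2 difference was 0.23, and over all genes it was 0.14.

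To see which allele carried the differences in level, each FPKM was divided into a B6 and an MSM part by the allele frequency of the same mouse, which assumes that reads without a strain-specific base divide like those with one. For Cyp3a16, the B6 allele was at 27.7 and 42.7 FPKM in the MSM-mother mice and at 97.1 and 83.5 FPKM in the B6-mother mice, a 2.56-fold difference. Its MSM allele was at 11.1 and 25.7 against 96.1 and 81.2 FPKM, a 4.83-fold difference. Both alleles were thus higher with a B6 mother. The same held for Cyp3a44, with B6 parts of 110 and 114 against 271 and 169 FPKM (1.97-fold) and MSM parts of 98.6 and 93.0 against 290.1 and 169.7 FPKM (2.40-fold). For Cyp3a11 both alleles were higher with an MSM mother, the B6 part 2.45-fold (613 and 406 against 155 and 262 FPKM) and the MSM part 1.62-fold (1700 and 1342 against 663 and 1209 FPKM). In none of these 3 genes did either part overlap between the crosses. Cyp3a41b separated in its B6 part alone, at 234 and 201 against 456 and 249 FPKM, and Cyp3a13 in its MSM part alone, at 15.1 and 12.1 against 10.1 and 8.66 FPKM. Cyp3a41a, Cyp3a25 and Cyp3a59 separated in neither part. The share of all genes whose parts do not overlap was not computed. Between the crosses, 42.4% of all genes did not overlap in FPKM and 34.3% in frequency. Each part is FPKM times frequency, so a separation of the parts is not independent of a separation in FPKM. These are descriptions of 4 mice with no test of their own.

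**Figure D5:**
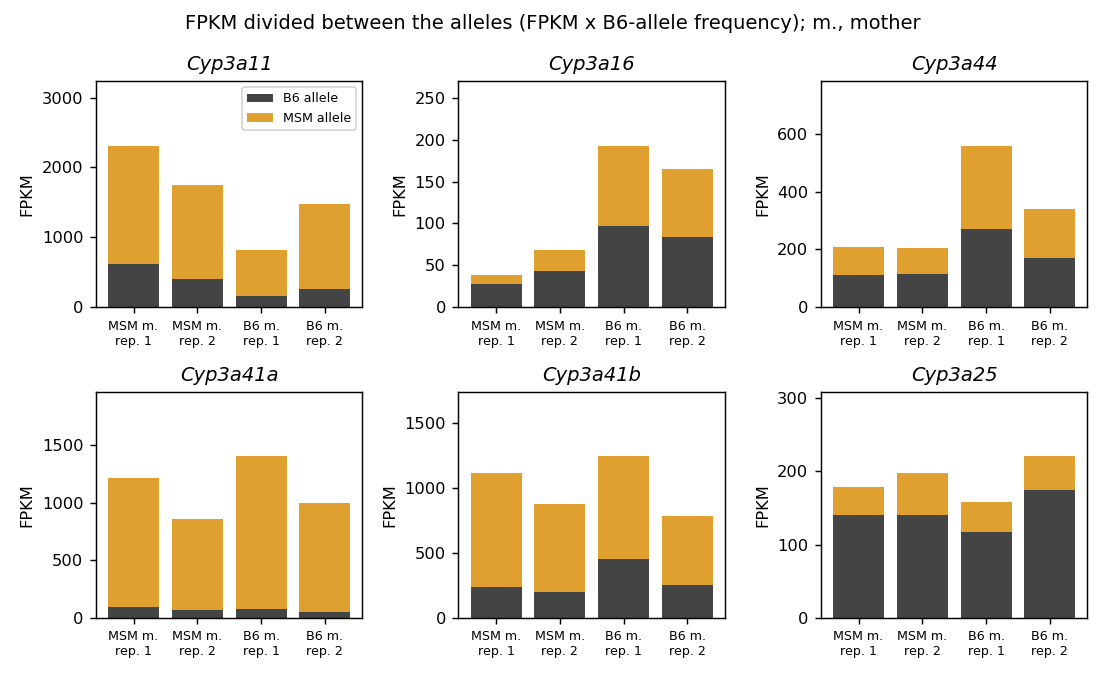
FPKM of 6 Cyp3a genes in each mouse, divided into a B6 part (dark, FPKM times B6-allele frequency) and an MSM part (light), with a linear axis from 0 for each gene and mice named by the strain of the mother (m.). Both parts of Cyp3a16 and Cyp3a44 are higher in the 2 mice with a B6 mother, and both parts of Cyp3a11 are higher in the 2 mice with an MSM mother.

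The crosses were also compared in B6-allele frequency. At an adjusted p under 0.05, 0 of the 8 members and 0.0826% of all 3632 genes were called (limma on log2 odds). At an unadjusted p under 0.05 it was 5 of the 8, Cyp3a41a, Cyp3a41b, Cyp3a11, Cyp3a16 and Cyp3a13, and 5.23% of all genes. The mice of the crosses did not overlap in frequency for 6 members, all but Cyp3a25 and Cyp3a59, and for 34.3% of all genes. Members share the 4 mice, and Cyp3a41a and Cyp3a41b share most of their sequence, so these counts are not independent of each other. The median size of the difference was 0.51 over the members and 0.13 over all genes, on the log2 odds scale.

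With an MSM mother, the B6-allele frequency was higher in 4 of the 6 non-overlapping genes. Cyp3a16 had the largest difference, 0.670 with an MSM mother against 0.505 with a B6 mother on average (log2 odds difference 1.00, SE 0.24, limma adjusted p = 0.873). Cyp3a41a differed by 0.69 (SE 0.10, limma adjusted p = 0.626), Cyp3a11 by 0.56 (SE 0.13, limma adjusted p = 0.873) and Cyp3a44 by 0.28 (SE 0.10, limma adjusted p = 0.873). In Cyp3a41b and Cyp3a13 the frequency was lower with an MSM mother, with log2 odds differences of -0.87 (SE 0.16, limma adjusted p = 0.8293) and -0.46 (SE 0.13, limma adjusted p = 0.873). Cyp3a41a and Cyp3a41b, whose reads can be exchanged, thus differed between the crosses in opposite directions, and the FPKM-weighted share of the pair followed Cyp3a41b. In either cross, Cyp3a11, Cyp3a41a and Cyp3a41b stayed below a frequency of 0.5 in both mice. Cyp3a13, Cyp3a16, Cyp3a25 and Cyp3a59 stayed above it, Cyp3a16 only just with a B6 mother (0.502 and 0.507). Cyp3a44 alone was above it with an MSM mother and below it with a B6 mother.

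Lastly, genes that act with Cyp3a enzymes or are regulated like them were examined as groups. Their counts stand against 8.87% of all genes at an unadjusted p under 0.05 in level, and 22.6% called toward B6, 13.6% toward MSM and 36.2% in all in imbalance. Of 12 transcription regulators of Cyp3a genes, 12 were listed and 0 were called between the crosses in level (limma, 3 at an unadjusted p under 0.05). Of all genes, 22.6% were called in imbalance toward B6 and 36.2% toward either allele. Among the 7 regulators with a frequency, 2 were called, both toward B6. The 2 were Hnf4a, which encodes HNF4α, with a mean frequency of 0.542 (limma adjusted p = 0.0300), and Cebpb, a C/EBP factor induced in the acute phase response, with 0.808 (limma adjusted p = 0.00537). Cebpb was at 46.8 and 36.5 FPKM in the MSM-mother mice and at 10.99 and 19.9 FPKM in the B6-mother mice (limma adjusted p = 0.340). Nr1i2, which encodes PXR and was singled out after its values were seen, was at 47.9, 59.3, 42.05 and 44.6 FPKM (limma adjusted p = 0.603). Hnf4a differed by 0.01 between the crosses on the log2 scale (limma adjusted p = 0.991). The part of these regulators in the levels of the Cyp3a genes was not tested.

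Of 8 genes for electron donors and haem supply of P450 enzymes, 7 were listed and 0 were called (limma, 1 at an unadjusted p under 0.05), and neither of the 2 with a frequency was imbalanced. Por, the reductase that passes electrons to Cyp3a enzymes, had a mean of 471 FPKM and a log2 difference of 0.27. Alas1, the first and rate-limiting enzyme of haem synthesis in liver, was at 107 and 310 FPKM in the MSM-mother mice and at 25.05 and 56.6 FPKM in the B6-mother mice (limma adjusted p = 0.432). Alas1 was the 1 gene of this list at an unadjusted p under 0.05. Its direction was that of Cyp3a11 and opposite to Cyp3a16 and Cyp3a44, while Pgrmc1 and Cyb5r3 had log2 differences of 0.13 and 0.07. A link of these genes to the levels of the Cyp3a genes was not tested.

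Of 17 other genes known for induction through PXR or CAR, 14 were listed, 0 were called in level (limma, 3 at an unadjusted p under 0.05), and of 8 with a frequency 4 were called toward B6 (Gstm1, Sult1a1, Aldh1a1 and Ces2a) and 1 toward MSM (Cyp2c29), where 22.6% and 13.6% of all genes were. All 16 genes of a list with female-biased expression were listed and 0 were called in level (limma, 3 at an unadjusted p under 0.05). Their median log2 difference was 0.03, where the female-biased Cyp3a44 was at -1.07, Cyp3a41a at -0.22 and Cyp3a41b at -0.0. Among those with a frequency, Cyp17a1 was called toward B6 and Cyp2c69 toward MSM. Of 12 genes with male-biased expression, 9 were listed and 0 were called (limma, 4 at an unadjusted p under 0.05), with a median log2 difference of 0.70, and 3 of 5 with a frequency were called toward MSM (Cyp4a12a, Cyp4a12b and Serpina12) and 1 toward B6 (Slco1a1). Over all genes, the median log2 difference was 0.02, 8.87% had an unadjusted p under 0.05 and 13.6% were called toward MSM.

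Marker levels were also summed by group for each mouse, and the sums themselves were not tested. Of all single genes, 42.4% did not overlap in FPKM between the crosses. The 5 acute phase genes summed to 2227 and 2109 FPKM in the MSM-mother mice and to 1434 and 1693 FPKM in the B6-mother mice, with 0 called (limma) and 3 of 5 at an unadjusted p under 0.05, where 8.87% of all genes were. 3 of 4 pericentral hepatocyte markers were listed and summed to 1973 and 1933 against 1349 and 1481 FPKM (limma, 0 called, 2 at an unadjusted p under 0.05). The 5 periportal markers summed to 3429 and 3714 against 3244 and 3082 FPKM (limma, 0 called, 2 at an unadjusted p under 0.05). 3 of 4 Kupffer cell markers were listed and summed to 72.6 and 65.2 against 83.4 and 89.7 FPKM (limma, 0 called, 1 at an unadjusted p under 0.05). The listed stellate cell markers summed to 94.18 and 80.45 against 64.57 and 73.61 FPKM (limma, 0 called). Sinusoidal endothelium markers summed to 99.77 and 91.94 against 102.9 and 111.0 FPKM (limma, 0 called). A sum can hide unlike members. Within the periportal sum, Cps1, Cyp2f2 and Hal had log2 differences of 0.03, 0.07 and 0.04, against 0.89 for Sds and 0.78 for Ass1. The part of these marker levels in the levels of Cyp3a11, Cyp3a16 and Cyp3a44 was not tested.

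Cyp3a16 had the largest SD of log2(FPKM + 1) over the mice, 1.08, and the genes with the most similar pattern were sought for it. Among 4802 other genes with a mean of at least 10 FPKM, the nearest was Srebf1, the gene of the lipogenic factor SREBP1, at 33.4, 52.5, 80.0 and 100.3 FPKM. The root mean square difference of its deviations from those of Cyp3a16 was 0.40 on the log2 scale over 4 mice. Next were Hbb-bs, a beta-globin gene, with 0.48 at 2.13, 3.02, 14.3 and 23.1 FPKM, and Snrpn, a gene of a small ribonucleoprotein particle, with 0.50 at 6.17, 4.07, 15.6 and 14.2 FPKM. The 3 erythroid markers summed to 133 and 45.2 FPKM in the MSM-mother mice and to 159 and 51.4 FPKM in the B6-mother mice. This sum includes Hbb-bs and was led in each mouse by Hba-a1, at 124, 36.0, 136 and 23.6 FPKM. A link of Cyp3a16 to the erythroid markers was not tested. Within the family, Cyp3a44 was nearest to Cyp3a16 at 0.49 and Cyp3a11 farthest at 1.44. All 4 genes, Srebf1, Hbb-bs, Snrpn and Cyp3a44, were lower in both MSM-mother mice than in either B6-mother mouse, a pattern that the measure of likeness itself selects.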

How the data were processed

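Liver polyA RNA of 4 female F1 mice had been sequenced by the authors as 150-base pairs. Before the FPKM were deposited, the authors removed adapters (Trim Galore!) and ran Tophat2 against an mm10 genome with N at each SNP, using the strand and keeping at most 1 alignment per read. The step that then gave the FPKM is not stated. To make the deposited fraction, the B6-allele frequency, the authors split reads by allele with SNPsplit and counted them with Cuffdiff. Versions are not given in the sources used here. Read numbers are not in the values, so no count test was run and no interval or depth can be given.

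From these values, limma 3.58.1 (R 4.3.3) was fitted to all genes. Levels were tested on log2(FPKM + 1), for a mean FPKM of at least 1, with a variance trend. For low genes this scale makes fold changes too small. Frequencies, limited to 0.01 to 0.99, were tested as log2 odds, with the mean of the crosses against 0 and the cross as a term. All tests were two-sided and were checked on simulated data, and p-values were adjusted over all genes by the method of Benjamini and Hochberg, with a threshold of 0.05. Mice were grouped by the cross in the labels. No replicate block was used, since equal replicate numbers are not stated to share a litter or day. Coding sequences were aligned with Biopython 1.88. Positions and transcripts came from GENCODE M21, with 1 transcript per gene, and promoters from RefSeq (GRCm38.p6), in which all 8 members matched by symbol. Allele parts were FPKM times frequency.

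The members and lists were chosen with earlier results of these data known. Text names the 8 members, their neighbours within 500 kb, the genes called in each list with at most 4 others of high FPKM, and the 3 genes nearest in pattern to the most variable member. A gene that this rule covers is not reported here. Other scalings, pseudocounts, filters and thresholds, a block for the replicate number and leaving out single mice were tried.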

Additional observations from a re-analysis of the deposited data

How the results depend on the processing

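The count of Cyp3a genes called between the crosses in level was 0, and it was 1 (Cyp3a16) with FPKM rescaled to the same sum. Leaving out each mouse gave 0 to 1, with Cyp3a16 called without the MSM-mother mouse 2. The deviations of the 2 mice numbered 1 from the means of their crosses were correlated over genes. The correlations were 0.00375 for log2(FPKM + 1) and 0.146 for log2 odds. With 2 mice per cross, the deviations of the mice numbered 2 are the mirror image of these. The correlations therefore cannot decide whether equal replicate numbers mark a pairing. With a replicate block, 2 members were called (Cyp3a16, log2 difference -1.77, limma adjusted p = 1.94e-07, and Cyp3a44, -1.07, limma adjusted p = 0.0130). Calls over all genes then went from 4 to 285 in level and from 1316 to 775 in imbalance. In 4 mice the block leaves few residual degrees of freedom, so these p-values lean on the variance estimated over all genes. Over all genes, 20 were called in level with the same sum, 850 in imbalance at a mean FPKM of at least 10, and leaving out a mouse gave 13 to 23 calls in level, 181 to 514 in imbalance and 0 to 6 in frequency between the crosses, where 3 were called with all mice. The count of imbalanced members was 6, with 5 to 7 when a mouse was left out and 7 (Cyp3a16 added) on the frequency itself and at a mean FPKM of at least 10. No alternative called a member between the crosses in frequency. The neighbours in FPKM order without overlap were 2, and 2 to 4 when a mouse was left out, the 4 without the B6-mother mouse 1. The 3 allele-biased members became 2 (Cyp3a41a and Cyp3a59) at 0.9 and 0.1 and also when every mouse had to pass, and stayed 3 without any 1 mouse. Small differences changed sign. In level, Cyp3a25 went to -0.12 with the same sum and -0.02 with the same median, and leaving out a mouse took it from -0.23 to 0.24. The same omissions gave -0.46 to 0.03 for Cyp3a41a, -0.33 to 0.33 for Cyp3a41b and -0.66 to 0.18 for Cyp3a59 in level, and -0.38 to 0.19 for Cyp3a25 and -0.69 to 0.06 for Cyp3a59 in the log2 odds. Of 224 values of single members under alternatives, 203 kept direction and side of the threshold, 12 reversed, 7 passed it anew and 2 no longer did. Unless named, the cause was not tested. Depth behind single values is unknown, and leaving out a mouse assumes that the lone mouse of its cross varies like the others.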
